A study of Arabidopsis thaliana with 6 samples.

Results

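Brassinosteroids are steroid hormones that plants need for cell elongation and leaf expansion. They are made from sterols by a reductase and a chain of cytochrome P450 enzymes, and are switched off by hydroxylation, glucosylation or acylation. Outside the cell they bind the receptor kinase BRI1, whose signal passes through cytoplasmic kinases and phosphatases to shut off the kinase BIN2. This frees the transcription factors BZR1 and BES1, which lower the synthesis genes again in a feedback loop and raise growth genes.

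The 10 genes described here were chosen by locus identifier, by a rule that holds no measured value, although earlier results of these data were known when it was written: the synthesis enzymes DET2, DWF4, CPD, BR6OX1 and BR6OX2, the inactivating enzyme BAS1, the receptor BRI1, the kinase BIN2 and the transcription factors BZR1 and BES1. Of these 10, 9 were read from a table of 22426 loci, and BIN2 (AT4G18710) was not analysed here. The libraries came from whole Arabidopsis thaliana plants, 3 labelled NCBP mutant and 3 labelled WT, all 2-week-old seedlings kept at 22 °C in long days, 16 hours light and 8 hours dark. NCBP (AT5G18110) belongs to the eIF4E family, whose proteins bind the cap of mRNA. The labels name neither the allele of the mutant nor the hour of harvest, and nothing states that replicates came from separate sowings, so the spread behind each p-value is that of these libraries and may be technical.

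Values are FPKM, in which fragments are divided by the gene's length and by the library's total. The NCBP transcript itself checked the labels, at 57.6 ± 1.73 FPKM in the mutant and 98.6 ± 1.61 FPKM in WT (SD, n = 3 each). The mutant mean was 58.5% of the WT mean, which does not show how much NCBP function remained. NCBP shares 12.7% of its exonic length with CSD3 on the opposite strand. The FPKM sums were 979062 to 998737 in the mutant libraries and 970383 to 1040255 in the WT libraries, and no library totals were given. Photosynthetic genes marked the tissue as green seedlings, with RBCS1A, CAB1 and RCA summing to 47465 to 51267 FPKM in the mutant and 44641 to 53723 FPKM in WT. Of these, RCA alone passed, as lower, at an adjusted p of 0.047, and was lost without mutant replicates 1 (0.148), 2 (0.142) or 3 (0.138) and without WT replicate 2 (0.0686), and also with no filter (0.166) and with median-ratio scaling (0.0583). Markers of seed (CRA1, OLEO1) reached at most 0.587 FPKM in any library and those of flower (AP3, PI, AG) at most 3.42 FPKM. All of these but PI lay under the filter of a mean of 1 FPKM and were not tested. PI, at 1.27 FPKM in the mutant and 2.56 FPKM in WT, did not pass (adjusted p 0.106), but was called lower without WT replicate 1 (0.0243). The 5 root markers summed to 986 to 1156 FPKM in the mutant and 1310 to 1584 FPKM in WT: TIP2;3 (45.9 FPKM in the mutant and 78.4 FPKM in WT, adjusted p 0.0019) and PYK10 (0.0227) passed as lower, and PYK10, at 1037 FPKM in the mutant and 1361 FPKM in WT, made up most of the sum. The root hair genes EXPA7, EXPA18 and SHV2 did not pass, with fitted differences of -0.0030, 0.27 and 0.32 on the log2 scale, and SHV2 was higher in every mutant library than in any WT library. PYK10 lost its call without mutant replicates 1 (0.0759) or 2 (0.0532) and without WT replicates 2 (0.0628) or 3 (0.0568), and with quantile normalization (0.0718). In whole plants, fewer cells of a type and less RNA per cell cannot be told apart.

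Transcripts of the brassinosteroid genes differed by small amounts between NCBP mutant and WT seedlings. The median absolute log2 fold change of the 8 tested members was 0.17, beside 0.13 over all genes tested. BRI1, the receptor, was the single member of 8 tested that passed the threshold, and it was lower in the mutant, at 41.8 ± 1.196 FPKM against 48.5 ± 0.412 FPKM in WT (SD, n = 3 each). The other 7 tested members did not pass, with log2 fold changes between -0.27 for BAS1 and 0.19 for DWF4. The ninth gene, BR6OX1, lay under the filter of a mean of 1 FPKM and was not tested. A share of 12.5% of the tested members was thus called, beside 14.7% of all 18064 genes tested (6.27% higher and 8.44% lower). By this threshold the members' count lies near the background. An unadjusted limma p under 0.05 was reached by 62.5% of the tested members, beside 30.9% of all genes tested. When each library was rescaled to an equal sum (TPM), the higher share of the calls over all genes was 53.9%, against 42.6% on the FPKM scale, and BRI1 was no longer called.

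The enzymes that make the hormone split by direction without any of them passing. DET2 (AT2G38050), a steroid reductase early in the pathway whose loss gives dwarf, de-etiolated plants, had 25.6, 20.98 and 24.1 FPKM in mutant replicates 1 to 3, against 30.4, 26.9 and 25.7 FPKM in WT replicates 1 to 3. All mutant values lay below all WT values, narrowly so for mutant replicate 1 and WT replicate 3. Its log2 fold change of -0.22 (SE 0.089, 95% interval -0.42 to -0.021) had an adjusted p of 0.127.

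DWF4 (AT3G50660), the P450 that hydroxylates the sterol side chain and is regarded as a rate-limiting step, went the other way. It had 11.1, 9.92 and 9.79 FPKM in the mutant libraries and 8.46, 9.67 and 8.46 FPKM in the WT libraries. The groups did not overlap, and the lowest mutant value stood just above the highest WT value. With a log2 fold change of 0.19 (SE 0.083, 95% interval 0.005 to 0.38), DWF4 had an adjusted p of 0.153.

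CPD (AT5G05690), the P450 that acts beside DWF4, was the most abundant of the members, with a coefficient of variation of 3.47% in the mutant and 3.21% in WT. It had 137.02, 146.7 and 143.7 FPKM in the mutant libraries, against 145.8, 154.9 and 153.4 FPKM in the WT libraries. The groups overlapped, and the log2 fold change of -0.087 (95% interval -0.20 to 0.027) had an adjusted p of 0.278.

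BR6OX1 (AT5G38970) and BR6OX2 (AT3G30180) encode paralogous oxidases at the end of the pathway, and BR6OX2 is the enzyme known to make brassinolide itself. BR6OX2 had 10.5, 10.3 and 11.6 FPKM in the mutant libraries and 8.82, 9.895 and 10.5 FPKM in the WT libraries, with overlapping groups. Its log2 fold change was 0.14 (95% interval -0.055 to 0.33), with an adjusted p of 0.312. BR6OX1 was close to the floor of the table, with 0.643, 0.688 and 1.0014 FPKM in the mutant libraries, against 0.504, 0.672 and 0.943 FPKM in the WT libraries. Its groups overlapped, and its coefficient of variation, 25.1% in the mutant and 31.3% in WT, was the highest of the 9 genes in both groups. BR6OX2 stood at 14.3 ± 2.43 times the level of BR6OX1 in the mutant and 14.5 ± 3.16 times in WT (SD of the ratio over 3 libraries each). The sources used here do not say how reads that match both paralogs were assigned.

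BAS1 (AT2G26710), a P450 that inactivates brassinosteroids by hydroxylation, showed the largest fitted difference among the members. Its transcript stood at 5.498, 5.73 and 5.84 FPKM in the mutant libraries, against 6.498, 7.60 and 7.18 FPKM in the WT libraries. The groups did not overlap, and the mutant mean was 80.2% of the WT mean. On the log2 scale the difference was -0.27 (SE 0.083, 95% interval -0.46 to -0.083), and the adjusted p of 0.0606 missed the threshold. BAS1 passed with quantile normalization (log2 fold change -0.30, adjusted p 0.0326), and its adjusted p ranged from 0.0326 to 0.162 over 16 alternatives.

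**Figure D1:**
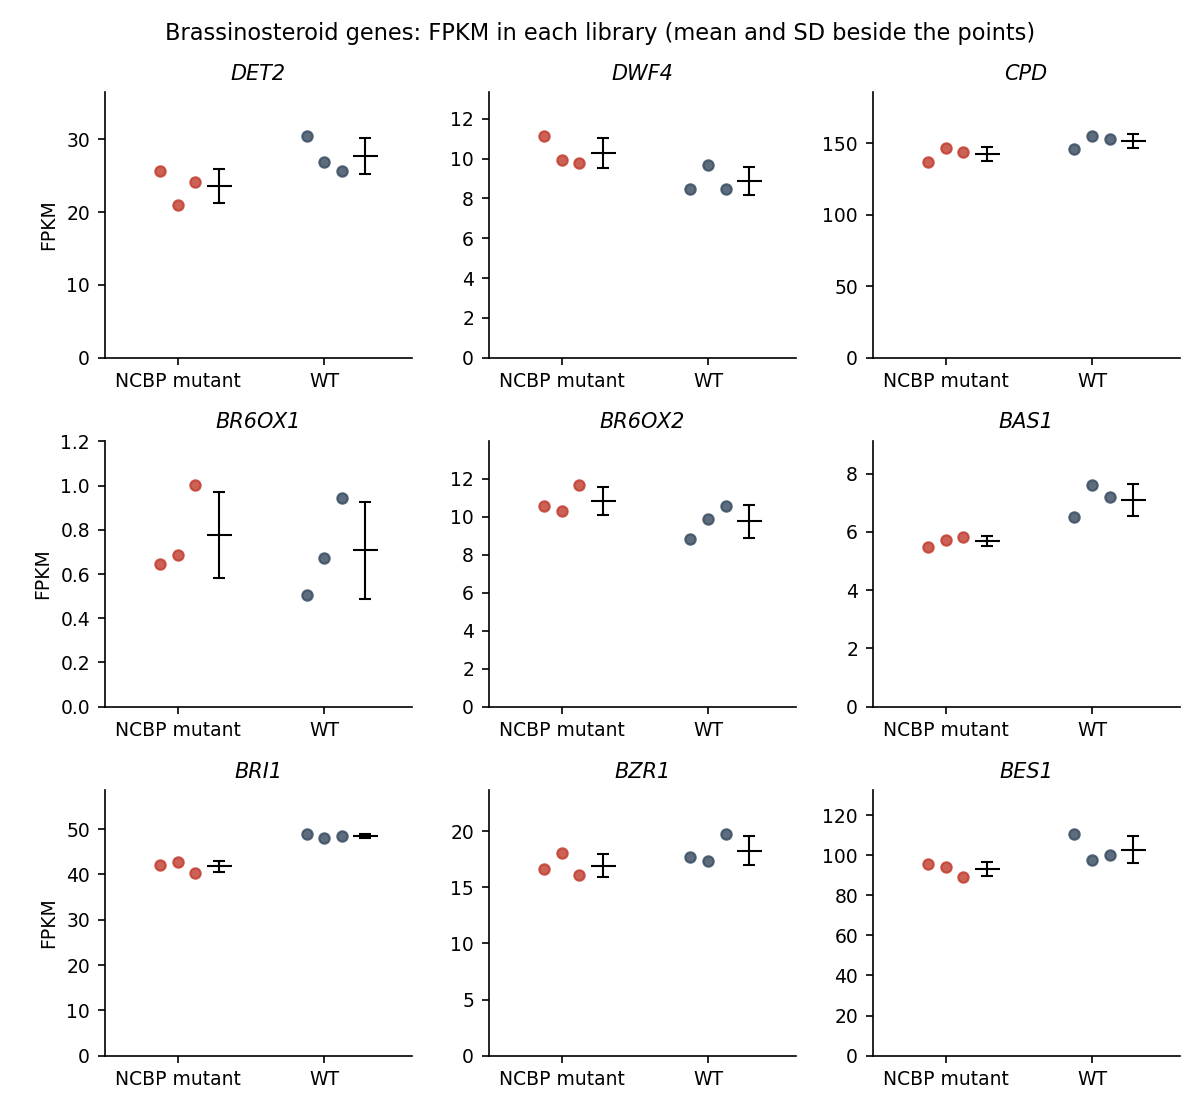
FPKM of 9 brassinosteroid genes in each library, NCBP mutant on the left and WT on the right of each panel, each panel with its own axis from 0. Points are libraries, and the bar beside them is the mean with its SD (n = 3). BRI1, BAS1, DET2 and BES1 lie lower in every mutant library than in any WT library, DWF4 lies higher, and the groups of CPD, BR6OX1, BR6OX2 and BZR1 overlap.

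BRI1 (AT4G39400), the hormone's main receptor, had 42.2, 42.7 and 40.4 FPKM in the mutant libraries, against 48.9, 48.05 and 48.5 FPKM in the WT libraries. The groups were well apart relative to their spread, with a coefficient of variation of 2.86% in the mutant and 0.850% in WT. The mutant mean was 86.2% of the WT mean. This gave a log2 fold change of -0.21 (SE 0.049, 95% interval -0.32 to -0.099) and an adjusted p of 0.0234.

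The call of BRI1 was a narrow one: 7 of 16 alternatives kept it, and the adjusted p ranged from 0.0205 to 0.071. Among the alternatives that ended it were rescaling to TPM (0.0641), quantile normalization (0.0614), a fit with no mean trend (0.0568), and leaving out mutant replicates 1 (0.0646), 2 (0.0613) or 3 (0.071) and WT replicates 1 (0.0625) or 3 (0.06004), while it was kept without WT replicate 2 (0.0484). The fitted difference itself stayed between -0.23 and -0.17 on the log2 scale over these 16. The root markers PYK10 and TIP2;3 were also lower in the mutant libraries, while EXPA18 and SHV2 had higher means there, and their part in the fall of BRI1 was not tested.

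The transcription factors of the pathway did not pass. BES1 (AT1G19350) had 95.7, 94.3 and 89.2 FPKM in the mutant libraries, against 110.4, 97.7 and 99.8 FPKM in the WT libraries, without overlap. Its log2 fold change was -0.14 (SE 0.060, 95% interval -0.28 to -0.0025), with an adjusted p of 0.156. BZR1 (AT1G75080), its close relative, had 16.7, 18.05 and 16.1 FPKM in the mutant libraries and 17.7, 17.4 and 19.7 FPKM in the WT libraries, with overlapping groups. Its log2 fold change was -0.10 (95% interval -0.27 to 0.061), with an adjusted p of 0.371.

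Both genes lie partly against a neighbour on the opposite strand, and the strand of the libraries was not stated, so reads of the shared part cannot be assigned to either gene. BES1 shares 33.6% of its exonic length with RRA3, which stood at 19.1 ± 0.7697 FPKM in the mutant and 20.1 ± 1.07 FPKM in WT. BZR1 shares 14.7% with AT1G75090, which stood at 4.22 ± 0.749 FPKM in the mutant and 3.10 ± 0.429 FPKM in WT (log2 fold change 0.35, adjusted p 0.118), and 11.4% with AT1G09523. Of the other members with values, DET2 shares 3.18% and CPD 1.04% with a gene on the opposite strand, and BRI1, DWF4, BR6OX1, BR6OX2 and BAS1 share no exonic base with another annotated gene.

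**Figure D2:**
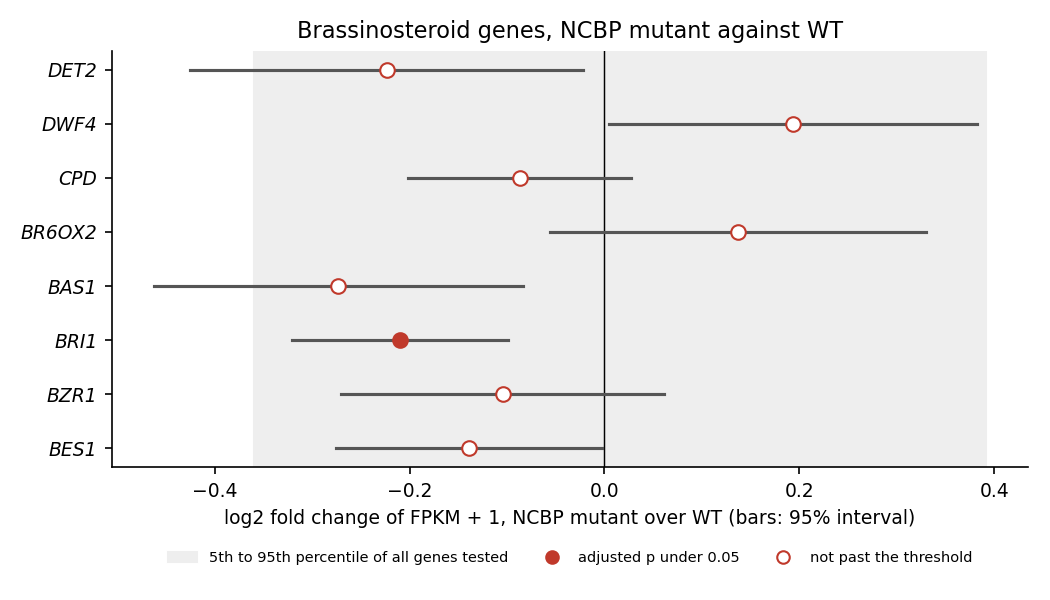
Log2 fold change of FPKM + 1, NCBP mutant over WT, for the 8 tested brassinosteroid genes, with bars for the 95% interval and a grey band from the 5th to the 95th percentile of all 18064 genes tested (-0.36 to 0.39). The filled point, BRI1 at -0.21, passed the threshold, and all 8 points lie inside the band.

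The levels of the members kept the same order in both groups. Per length, CPD was highest, followed by BES1, BRI1, DET2, BZR1, BR6OX2, DWF4, BAS1 and BR6OX1. The ranges of neighbours in this order did not overlap within either group, except for BR6OX2 and DWF4, which overlapped in both. CPD ranked at the 95.8th percentile of all loci by mean FPKM, BES1 at the 93.6th, BRI1 at the 86.03rd and BR6OX1 at the 17.3rd.

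The sizes of the differences were set against the whole table. The median absolute log2 fold change was 0.17 over the 8 tested members and 0.13 over all genes tested. Their signed median was -0.12, beside -0.0034 over all genes, with 6 members below 0 and 2 above. Mutant and WT values were fully apart for 5 of 8 members, 4 with the mutant below and 1 with the mutant above, beside 35.5% of all genes tested (19.1% below, 16.4% above). An unadjusted p under 0.05 was reached by 5 of 8 members (62.5%), beside 30.9% of all genes tested. The median of the members stayed below 0 under each scaling, at -0.096 after rescaling to TPM, -0.12 with median-ratio scaling and -0.093 with quantile normalization.

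Beyond the members, 49 genes in 7 lists cover the rest of the pathway, 47 of them with values and 46 tested. Of these 46, 1 rose, 4 fell and 41 did not pass, a called share of 10.9%, near the background of 14.7%. The 5 calls fell on enzymes that inactivate the hormone (2 of 5 tested, both lower), on the relay from the receptor (2 of 8, both lower) and on partners of BES1 (1 of 7, higher). The median log2 fold change over the 46 was -0.052. After rescaling to TPM, 1 was called higher and 2 lower. The count of 4 lower was 1 without mutant replicate 1 and 2 without mutant replicate 2, mutant replicate 3 or WT replicate 3, and the count of 1 higher was 0 without mutant replicate 1 and 2 without WT replicate 1. The part of the root markers, which moved in both directions, was not tested.

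**Figure D3:**
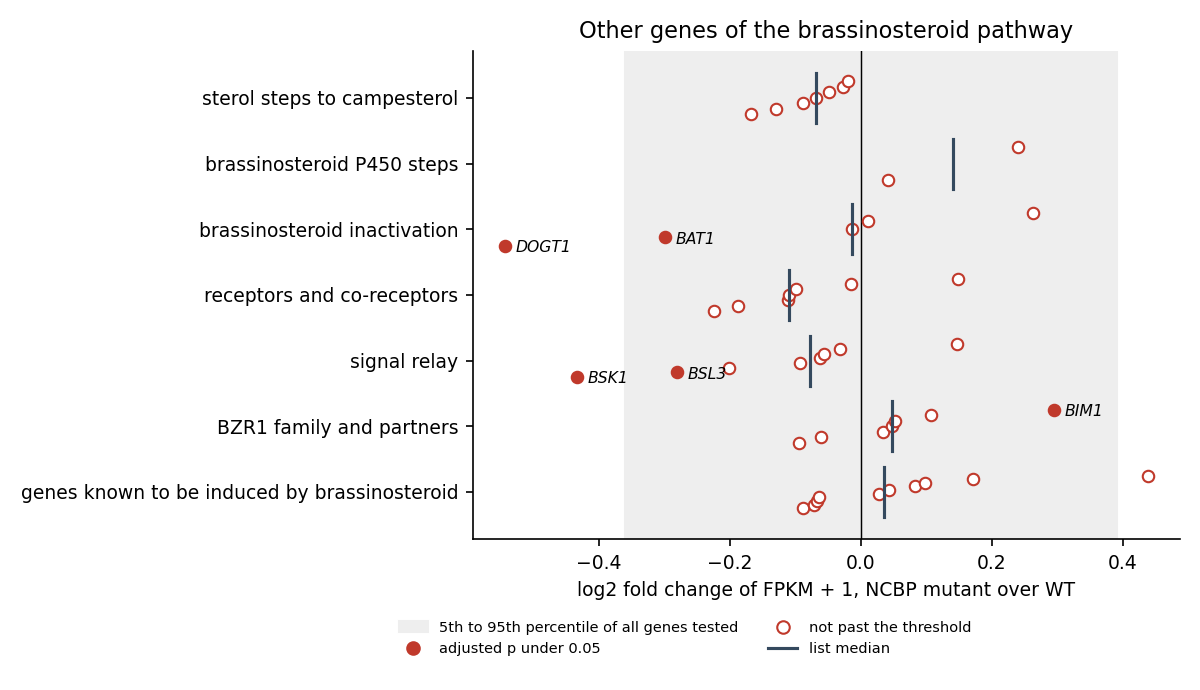
Log2 fold change of FPKM + 1, NCBP mutant over WT, for 46 further genes of the pathway grouped in 7 lists, with vertical lines for the list medians and a grey band from the 5th to the 95th percentile of all genes tested. The 5 filled and named points passed the threshold: DOGT1, BAT1, BSK1 and BSL3 lower, BIM1 higher.

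BSK1 (AT4G35230), a membrane-bound kinase that BRI1 phosphorylates, gave the firmest call of the pathway. It had 24.8, 22.7 and 24.4 FPKM in the mutant libraries, against 32.7, 32.1 and 33.2 FPKM in the WT libraries. Every mutant value was lower than every WT value by several times the spread within a group, and the mutant mean was 73.3% of the WT mean. Its log2 fold change was -0.43 (SE 0.056), with an adjusted p of 0.00274, and the call held in 16 of 16 alternatives, with adjusted p between 0.00173 and 0.0137.

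The relatives of BSK1 did not follow it past the threshold: BSK2 had a log2 fold change of 0.15 (adjusted p 0.226) and BSK3 one of -0.032 (0.745), and the differences between the paralogs were not tested. BSL3 (AT2G27210), a phosphatase of the family that acts on BIN2, fell to 10.2, 10.1 and 10.5 FPKM in the mutant libraries, against 13.6, 12.02 and 12.5 FPKM in the WT libraries, without overlap. Its log2 fold change was -0.28 (SE 0.070), with an adjusted p of 0.0296.

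The BSL3 call was lost after rescaling to TPM (0.053), without mutant replicates 1 (0.0855), 2 (0.0923) or 3 (0.0596) and without WT replicates 1 (0.0817) or 3 (0.0682), with a range of 0.0227 to 0.0923. Its relatives BSL1 and BSL2 had log2 fold changes of -0.056 and -0.20 and did not pass. GSK1 and SKdZeta, kinases of the same subgroup as BIN2, did not pass either, at -0.063 and -0.093. BSU1, the founding phosphatase of the family, lay under the filter, at 0.152 FPKM in the mutant and 0.134 FPKM in WT, and CDG1 was not analysed here.

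Among the other inactivating enzymes, DOGT1 (UGT73C5, AT2G36800), which glucosylates brassinosteroids and the fungal toxin deoxynivalenol, had the largest fitted change of the 46. It had 13.9, 12.8 and 17.03 FPKM in the mutant libraries, against 24.3, 19.4 and 21.3 FPKM in the WT libraries, without overlap. The fit gave a log2 fold change of -0.54 (SE 0.11) and an adjusted p of 0.0163. Without mutant replicate 1 (0.0574) or 2 (0.0532) the call was lost, and over all alternatives the adjusted p ranged from 0.0104 to 0.0574. Its close copy UGT73C6 did not pass, at 4.97 FPKM in the mutant and 5.03 FPKM in WT, and the treatment of reads that match both copies is unknown. UGT73C6 also lies wholly within AT2G36792 on the opposite strand, with 100% of its exonic length shared.

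BAT1 (AT4G31910), an acyltransferase that lowers active brassinosteroid when overproduced, fell to 18.6, 20.2 and 17.7 FPKM in the mutant libraries, against 21.9, 23.9 and 24.4 FPKM in the WT libraries. The groups did not overlap, at a log2 fold change of -0.30 (SE 0.071) and an adjusted p of 0.0252. The call was lost after rescaling to TPM (0.0595), without mutant replicates 1 (0.076) or 3 (0.0739) and without WT replicates 2 (0.0657) or 3 (0.0797), with a range of 0.0183 to 0.0797. The remaining inactivating genes did not pass, with BEN1 at a log2 fold change of 0.01 and CYP72C1, a relative of BAS1, at 0.26 (adjusted p 0.169).

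BIM1 (AT5G08130), a bHLH protein that binds DNA together with BES1, was the single gene of the wider pathway that rose. It had 35.5, 31.8 and 31.5 FPKM in the mutant libraries, against 26.4, 27.03 and 26.4 FPKM in the WT libraries, without overlap, for a log2 fold change of 0.30 (SE 0.061) and an adjusted p of 0.0159. Without mutant replicate 1, its highest library, the adjusted p was 0.0517, the one alternative of 16 that ended the call, and the range was 0.0116 to 0.0517. The further BIM and BZR1-family genes with values, BIM2, BIM3, BEH1, BEH2 and BEH3, and the elongation factor IWS1 had log2 fold changes between -0.094 and 0.11 and did not pass, and BEH4 was not analysed here.

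**Figure D4:**
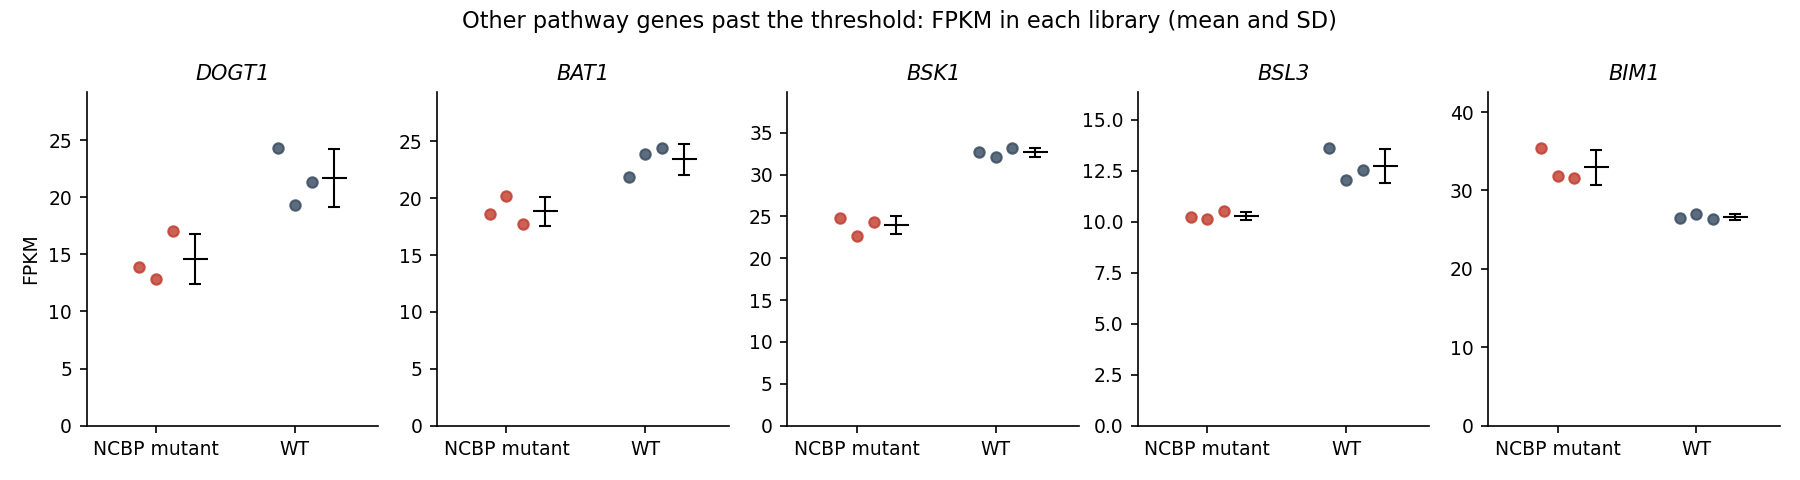
FPKM of the 5 further pathway genes past the threshold in each library, NCBP mutant on the left and WT on the right of each panel, each panel with its own axis from 0. Points are libraries and the bar beside them is the mean with its SD (n = 3). The groups do not overlap in any panel, with DOGT1, BAT1, BSK1 and BSL3 lower and BIM1 higher in the mutant.

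Other receptors and co-receptors gave 0 calls among 7 tested with limma, and 2 had an unadjusted p under 0.05, a value that 30.9% of all genes tested reached. The smallest p belonged to BRL2, a BRI1-like kinase of vascular tissue, with 8.66, 7.69 and 7.58 FPKM in the mutant libraries, against 9.61, 9.52 and 9.28 FPKM in the WT libraries (log2 fold change -0.22, adjusted p 0.0815). BAK1, the main co-receptor of BRI1, stood at 22.4 ± 1.196 FPKM in the mutant and 24.2 ± 0.816 FPKM in WT (log2 fold change -0.11, 95% interval -0.25 to 0.029, adjusted p 0.261). BKI1, the inhibitor that keeps BRI1 inactive, had a log2 fold change of -0.19 (adjusted p 0.148). Of the 7 genes, 6 had a difference below 0 and 1 above. The latter was BRL3, a BRI1-like receptor, higher in every mutant library than in any WT library (log2 fold change 0.15, adjusted p 0.323).

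The 7 sterol enzymes upstream of the hormone also gave 0 calls with limma, and 0 had an unadjusted p under 0.05, beside 30.9% of all genes. Their log2 fold changes lay between -0.17 and -0.019. SMT1, the first sterol methyltransferase, was at the low end, with 60.4 ± 4.17 FPKM in the mutant and 68.1 ± 5.53 FPKM in WT (adjusted p 0.163). The remaining P450 genes of the pathway, CYP90D1 and ROT3, did not pass. CYP90D1 showed 4.95, 4.91 and 5.56 FPKM in the mutant libraries, against 4.17, 4.28 and 4.14 FPKM in the WT libraries (log2 fold change 0.24, adjusted p 0.101).

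Genes known to be raised by brassinosteroid gave 0 calls among 10 tested with limma, and 0 had an unadjusted p under 0.05, again beside 30.9% of all genes. Their median log2 fold change was 0.035, with a lowest value of -0.088 for IAA19 and a highest of 0.44 for BEE1. BEE1, a bHLH gene named for its induction by the hormone, had 3.03, 3.69 and 3.49 FPKM in the mutant libraries and 2.73, 1.21 and 3.13 FPKM in the WT libraries, with overlapping groups (adjusted p 0.213). The fitted value of BEE1 was 0.16 without WT replicate 2, 0.61 without WT replicate 3 and 0.20 with a pseudocount of 5. The expansin EXPA8 stood at 229 ± 12.6 FPKM in the mutant and 239 ± 15.5 FPKM in WT, with a 95% interval of -0.21 to 0.082 for its log2 fold change. SAUR15 was called higher when WT replicate 1 was left out (log2 fold change 0.37, adjusted p 0.0395) and had an adjusted p of 0.5005 with all libraries.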

How the data were processed

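RNA from 6 libraries of whole seedlings, 3 per group, was analysed from 1 table of FPKM deposited by the authors (fragments per length of gene and depth of library). Per the submitters' processing notes HISAT2 was used, with no version stated. Program of the FPKM, build, annotation and strandedness: not given in the sources used here. FPKM depends on the library total, so abundant genes move the rest. Gene names and exon overlaps were taken from TAIR10.1 as annotated by RefSeq, which held all 10 members and all 49 other pathway genes, and no coordinates are printed.

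Values were analysed as log2(FPKM + 1), a scale that understates changes of low genes. Genes with a mean of at least 1 FPKM over the 6 libraries were tested in R 4.3.3 with limma 3.58.1 (moderated variance with a mean trend, 2-sided), with Benjamini-Hochberg adjustment over all genes tested and a threshold of 0.05. Every adjusted p is from this fit unless an alternative is named. The fit was also run on simulated data with independent noise, which cannot show how it behaves with technical replicates or shifts in scaling. The 16 alternatives covered pseudocount, filter, scaling, moderation, a replicate block and each left-out library. The rule for the members uses no measured value, but members, lists and tests were chosen with earlier results of these data known. The genes named were the 10 members, NCBP, each pathway gene past the threshold and, in a list with none, the gene with the smallest p. Further genes were named to complete a list or as examples from it, with no fixed rule.

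Absolute depth is unknown. The most common ratio between the lowest values of a gene, under 0.5 FPKM, placed the mutant libraries at 1.16 to 1.31 times the depth of wild-type replicate 1, and wild-type replicates 2 and 3 at 1.09 and 1.17 times. Few genes stood at that ratio: 57 to 99 of 1348 to 1385 in the mutant libraries. For wild-type replicates 2 and 3 they were 38 of 1390 and 67 of 1481, so these depths are rough. Precision is known only through the spread between replicates.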

Additional observations from a re-analysis of the deposited data

How the results depend on the processing

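Of the tested members, DET2, DWF4, CPD, BR6OX2, BZR1 and BES1 kept their direction and passed the threshold in none of 16 alternatives, and NCBP kept its call. The count of members called lower was 0 with TPM, without a mean trend and with a replicate block, and 0 to 1 over left-out libraries, against 1. BRI1 had a log2 fold change of -0.18 with TPM, -0.17 with quantile normalization (adjusted p 0.0614), -0.21 without a mean trend (0.0568) and -0.21 with the replicate block (0.0553), and -0.23 to -0.19 over left-out libraries. BAS1 had -0.30 with quantile normalization. The other pathway genes called lower numbered 2 with TPM and 1 to 3 over left-out libraries, and those called higher 0 to 2. Over left-out libraries the count over all genes was 579 to 987 higher and 720 to 1107 lower. The cause of these changes was not tested.

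Same-numbered libraries correlated at 0.0705, -0.072 and -0.060 in their deviations from the group means. Not every library correlated best with its own number. Such deviations in groups of 3 cannot show which libraries were handled together, so a shared origin remains unknown. The replicate block gave 1991 calls over all genes, against 2657, and with it BSL3 had an adjusted p of 0.058 and RCA one of 0.142. Directions turned for uncalled pathway genes near 0: with TPM FK was at 0.0063, UGT73C6 at 0.0087 and SERK1 at 0.0077, and with quantile normalization HYD1 at 0.024. Over left-out libraries DWF1 ranged from -0.077 to 0.0040, FK from -0.12 to 0.048, HYD1 from -0.059 to 0.0091, UGT73C6 from -0.072 to 0.060, BEN1 from -0.073 to 0.067, SERK1 from -0.038 to 0.031, BSK3 from -0.063 to 0.0012, BIM3 from -0.14 to 0.018, IWS1 from -0.0035 to 0.094, BEE3 from -0.14 to 0.036, HBI1 from -0.0087 to 0.088 and TCH4 from -0.16 to 0.14. Groups of 3 libraries and the unknown depth limit what can be seen of changes as small as these.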

Other observations

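Ratios within a library do not depend on the library total. These pairs were chosen after the values were seen and are given as values with no test. DWF4 stood at 2.02, 1.73 and 1.68 times the level of BAS1 in the mutant libraries, against 1.30, 1.27 and 1.18 times in the WT libraries. BR6OX2 stood at 1.92, 1.79 and 1.99 times BAS1 in the mutant libraries, against 1.36, 1.30 and 1.47 times in the WT libraries. CPD stood at 24.9, 25.6 and 24.6 times BAS1 in the mutant libraries, against 22.4, 20.4 and 21.3 times in the WT libraries. These ratios to BAS1 were higher in every mutant library than in any WT library. They share BAS1, the member with the largest fitted difference. For DWF4 over BAS1 the separation was bound to follow, since DWF4 lay higher and BAS1 lower in every mutant library than in any WT library. That ratio therefore adds nothing to the values of the 2 genes. CPD over DWF4 was lower in every mutant library, at 12.3, 14.8 and 14.7, against 17.2, 16.02 and 18.1 in the WT libraries. How often ratios of other gene pairs separate the groups was not computed. DET2 over BAS1 overlapped between the groups, at 4.15 ± 0.501 in the mutant and 3.93 ± 0.648 in WT (SD, n = 3 each). BES1 over BZR1 also overlapped, at 5.51 ± 0.263 in the mutant and 5.64 ± 0.589 in WT.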
